A study of Mus musculus with 8 samples.

Results

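The 74 genes described here encode proteins of the cytosolic ribosome, 29 of the small subunit and 45 of the large subunit, among 19879 genes measured in mouse bone marrow progenitors. They were taken by name, as rows called Rpl or Rps with a number and at most 1 letter, together with Rplp0, Rplp1, Rplp2 and Rpsa, and rows of processed pseudogenes named -ps were left out. Rpl6l met the name rule and is counted among the 45, but is annotated as a processed pseudogene. The ribosomal protein genes Rps2, Rps4x, Rpl7a, Rpl24 and Rpl29 have no row under those names. Sums over the 74 genes therefore leave them out and do not cover the whole ribosome. RNA came from single sorted cells by CEL-Seq2, which captures the 3′ end of each mRNA and tags it with a molecular identifier. Counts are therefore estimated molecules and are not scaled by gene length. The 8 libraries form 4 groups of 2, namely plate2 libraries of Mof heterozygous mice (Mof -/+ in the labels), plate2 libraries of wild type mice, HSC libraries of heterozygous mice and HSC libraries of wild type mice. Mof, now called Kat8, encodes a histone lysine acetyltransferase. The labels give neither the allele, the age of the animals nor the sort gate of a plate2 well, and the design text lists stem cell, erythroid, granulocyte-monocyte and megakaryocyte progenitor gates.

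A ribosome consists of a small subunit that reads the mRNA and a large subunit that joins amino acids, and each protein is needed in about equal number per particle. In vertebrates most of these mRNAs begin with a terminal oligopyrimidine (TOP) tract, a C followed by further pyrimidines at the cap, through which mTOR signalling sets their translation. Blood formation is known to be sensitive to ribosomal protein dose. Loss of 1 copy of several of these genes causes Diamond-Blackfan anaemia in humans, a failure of red cell precursors, and stem cells are known for low rates of protein synthesis.

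The annotated starts of 6 members that the results turn on are printed. Pyrimidine runs of at least 6 bases that begin with C are in capitals. Cap sites were not mapped here, so a window without a run does not show that the mRNA lacks the tract. Each window runs 5′ to 3′ on the gene's strand and the RefSeq gene start (GRCm38.p6) is base 11 of 30. Where a gene has several RefSeq starts, a start with such a run was printed in preference. The windows lie at chr9:120571507-120571536 on the plus strand for Rpl14, chr7:141447641-141447670 on the plus strand for Rplp2, chr4:86857348-86857377 on the minus strand for Rps6, chr7:3704031-3704060 on the plus strand for Rps9, chr10:80292421-80292450 on the plus strand for Rps15 and chr7:28350679-28350708 on the plus strand for Rps16.
Rpl14: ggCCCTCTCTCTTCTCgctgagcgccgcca
Rplp2: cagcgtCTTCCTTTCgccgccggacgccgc
Rps6: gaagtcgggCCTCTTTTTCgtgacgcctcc
Rps9: cttgtCTCTCTTTgtctcgggcctgagttc
Rps15: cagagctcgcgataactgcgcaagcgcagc
Rps16: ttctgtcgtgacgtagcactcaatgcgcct

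RefSeq's promoter table held 54 of the 74 members. Such a run was in the 30-base window of 32 of them (59.3%), against 24.9% of 27025 gene symbols in that table. Here and below, a gene counted if any of its RefSeq starts matched, so genes with several starts had more windows. The letters CCGGAAG, a core recognised by ETS factors, stood on either strand between 250 bases before and 50 bases after the start in 23 of 54 members (42.6%), against 9.93% of all symbols. A TATAAA word was less common in members (9.26%) than in all symbols (15.7%), and the E-box word CACGTG was found in 11.1% of members and 8.09% of all symbols. These matches describe letters in the window and are not binding sites.

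Kept wells, those with at least 1000 transcripts, numbered 436 of 1536 barcodes. Summed libraries held 424794 to 734550 transcripts in plate2 libraries and 99312 to 244299 in HSC libraries. The median well held 8082 to 12530 transcripts in plate2 libraries and 1567 to 2979 in HSC libraries. The libraries list the same barcode numbers, and 77.2% of the numbers kept anywhere were kept in 2 or more libraries, while 19 kept wells used numbers outside a library's own 96. Kat8 gave 9 and 12 transcripts in heterozygous plate2 libraries, 10 and 4 in wild type plate2, 1 and 2 in heterozygous HSC and 1 and 2 in wild type HSC, too few to check the genotype labels. Summed stem cell markers reached 745 to 1355 transcripts per 1000000 (CPM) in plate2 libraries and 3757 to 5437 CPM in HSC libraries. Late erythroid markers, mainly haemoglobins, reached 16042 CPM in wild type HSC library 1, against 813 to 1718 CPM in the other HSC libraries. The pan-leukocyte gene Ptprc had 72.2 to 264 CPM and was found in every library. No source says whether 2 libraries of a group are 2 animals, and p-values here therefore reflect spread between libraries that may be technical.

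Together the 74 genes gave 8.43% to 13.3% of all transcripts. Their share was 13.3% and 13.1% in heterozygous plate2 libraries, 10.6% and 8.43% in wild type plate2 libraries, 11.3% and 10.9% in heterozygous HSC libraries, and 10.2% and 9.19% in wild type HSC libraries. Both heterozygous libraries lay above both wild type libraries in each plate set. The difference, heterozygous minus wild type, was 3.67 percentage points in plate2 (means 13.2% ± 0.134 and 9.51% ± 1.54, SD, n = 2 each) and 1.41 points in HSC (11.1% ± 0.281 and 9.71% ± 0.731). A summed share over the members carries no test here. With 2 libraries a group, no exact permutation test within a set could fall under 0.05.

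In bulk sums, a higher share cannot be told apart from a change in the mix of wells. Predicted gene models named Gm went the opposite way to the ribosomal share in plate2. They took 11.5% and 9.35% of transcripts in heterozygous plate2 libraries, against 17.9% and 21.3% in wild type plate2 libraries. In HSC libraries the groups overlapped, with 5.99% and 8.36% in heterozygotes and 7.72% and 7.48% in wild type. With Gm models and mitochondrially encoded genes left out of the total, the ribosomal share was 17.7% and 17.3% in heterozygous plate2 libraries, 15.7% and 13.2% in wild type plate2, 14.3% and 14.1% in heterozygous HSC and 13.4% and 12.3% in wild type HSC. The groups of a set still did not overlap on that total. Without wells in which Gm models made at least 20% of transcripts, an alternative added after seeing the data, the ribosomal share was 13.9% and 13.3% in heterozygous plate2 libraries, against 12.1% and 9.82% in wild type plate2, a difference of 2.70 points. The 37 genes of all kinds that passed between genotypes in plate2 became 0 of 5894 (0.0%) without these wells, and the members' median log2 fold change was 0.32.

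Markers of other cell types also moved with the genotype in plate2. Summed mature neutrophil markers had 380.7 and 113.5 CPM in heterozygous plate2 libraries, against 2714 and 2155 CPM in wild type plate2. Summed markers of neutrophil or monocyte progenitors had 4895 and 3257 CPM in heterozygous plate2 libraries, against 2965 and 691 CPM in wild type plate2. Erythroid progenitor markers had 4285 and 4513 CPM, against 3547 and 3697 CPM. Stem cell markers had 820 and 745 CPM, against 960 and 1355 CPM. Late erythroid markers had 61.9 and 713 CPM, against 2861 and 765 CPM. Erythroid progenitor-like cluster 5 (below) held 12 of 48 and 10 of 46 heterozygous wells, against 6 of 65 and 4 of 45 wild type. Without neutrophil-marked wells the difference in ribosomal share was 3.51 points. The part of the other markers and of cluster 5 in that difference was not tested.

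The share of single wells varied far beyond counting error. The SD over wells was 8.66 to 10.3 times the counting SD in 3 plate2 libraries and 6.995 times in heterozygous plate2 library 2. In HSC libraries it was 2.60 to 3.68 times. The counting SD was 0.409 to 0.501 points in the deeper plate2 libraries and 0.624 to 0.766 points in HSC libraries, so the ratios also carry depth. The SD over wells itself was 3.04 to 4.87 points in plate2 libraries and 1.87 to 2.56 points in HSC libraries. Median wells had 12.6% and 12.6% in heterozygous plate2 libraries, 10.9% and 9.04% in wild type plate2, 10.96% and 10.52% in heterozygous HSC and 10.3% and 9.30% in wild type HSC. Wells under 3% occurred in plate2 libraries, 6 and 2 in heterozygous and 11 and 7 in wild type, and in no HSC library. All 26 of these wells fell into 2 clusters made without the ribosomal protein genes. Of them, 21 belonged to a cluster of 31 wells led by Gm models, whose median well gave 59.9% of transcripts to Gm models and 1.28% to ribosomal proteins. The other 5 were the plate2 wells of the mature neutrophil-like cluster, all of them in wild type libraries, whose leading genes include S100a8, S100a9 and Ngp.

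**Figure D1:**
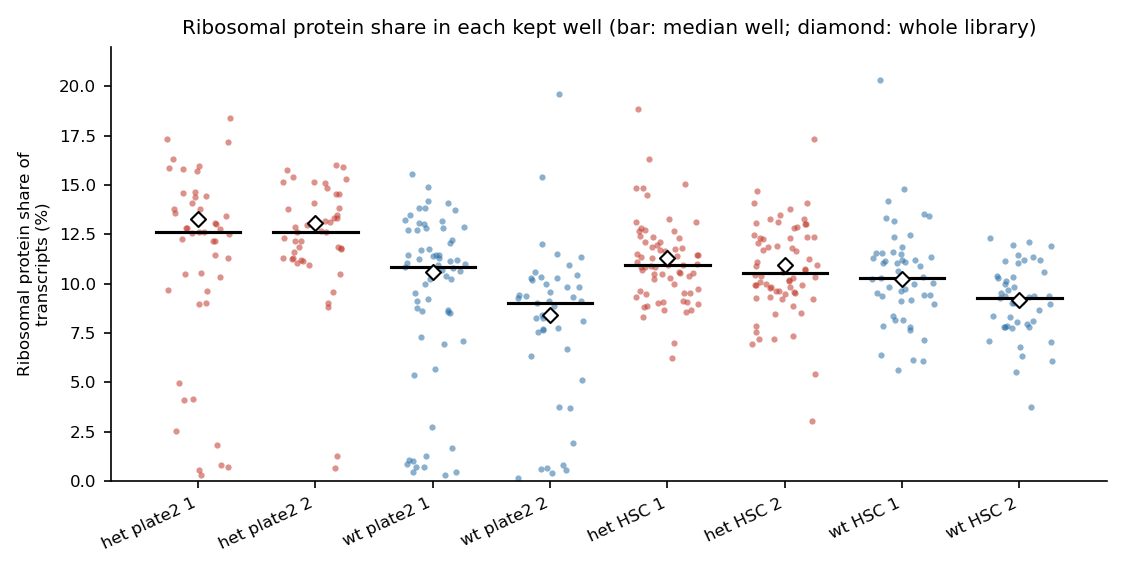
Share of transcripts from 74 ribosomal protein genes in each kept well (points, y axis in percent) by library, heterozygous in red and wild type in blue, with the median well as a bar and the whole library as a diamond. Wells under 3% appear in the plate2 libraries, and the heterozygous medians lie above the wild type medians in each set.

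Small and large subunit genes kept nearly the same proportion in every library. The ratio of small to large subunit transcripts was 0.713 and 0.727 in heterozygous plate2 libraries, 0.705 and 0.717 in wild type plate2, 0.726 and 0.785 in heterozygous HSC and 0.758 and 0.760 in wild type HSC. All 4 plate2 values were below 0.728, and 1 HSC library, at 0.726, lay within their range. Between single wells of a library, the 2 subunits' shares went together with Spearman's rho of 0.859 to 0.924 in plate2 libraries (45 to 65 wells) and 0.561 to 0.747 in HSC libraries (46 to 68 wells). The wells share a library, and both shares have the same total as denominator.

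Clusters of wells differed in share. The erythroid progenitor-like cluster 5, marked by Car1, Klf1 and Aqp1, had a median of 13.1% over 40 wells, and the neutrophil or monocyte progenitor-like cluster 9, marked by Mpo and Elane, had 12.2% over 24 wells. Clusters 0, 1 and 2, made up of HSC-library wells alone, had medians of 10.4%, 10.8% and 10.5%. No cluster met the rule for a stem-like name, which asked for 3 markers; Cluster 0 was led by the haemoglobin genes Hbb-bs and Hba-a1, with Shisa5, Ly6a and Ctla2a next. Clusters follow plate sets and libraries, so a cluster's share cannot be told apart from its libraries'.

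The genotype difference within plate2 was seen in several clusters. In cluster 5, heterozygous plate2 libraries had 14.9% (12 wells) and 13.6% (10 wells), against 12.8% (6 wells) and 10.7% (4 wells) in wild type plate2. In unnamed cluster 4, heterozygous plate2 libraries had 11.3% and 12.1%, against 9.90% and 8.95% in wild type plate2. Groups did not overlap in these clusters. In cluster 8 they did, with 14.1% and 12.3% in heterozygous plate2 libraries and 12.5% and 8.35% in wild type plate2. In cluster 6, of shallow erythroid progenitor-like wells, values were 11.4% and 11.4% in heterozygous plate2 libraries and 11.2% and 11.9% in wild type plate2. Most of these plate2 wells used barcode numbers outside their library's own 96. Wild type plate2 library 1 kept 11 wells with such numbers, at 1003 to 1451 transcripts each. In heterozygous plate2 library 1 the same numbers held 20364 to 39351 transcripts. Whether these wells hold cells of their own library was not tested. Among HSC libraries, cluster 0 gave 11.2% and 11.1% in heterozygotes, against 9.68% and 9.46% in wild type. In cluster 1 the groups overlapped, with 11.3% and 10.6% in heterozygous HSC libraries and 11.8% and 9.79% in wild type HSC. In cluster 2 heterozygous HSC libraries had 10.6% and 12.5%, against 10.4% and 8.73% in wild type HSC. These values rest on 2 libraries a group and were not tested.

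Of the 74 genes, 70 passed the filter on low counts. Rps9, Rps20, Rpl4 and Rpl23 were among the members of highest mean level, with 4502, 4256, 3846 and 3636 CPM over the 8 libraries. Rps9 was seen in 432 of 436 wells. The 4 genes that did not pass were Rpl10l, an intronless copy of Rpl10 known from the testis, with 0.184 CPM, and Rps12, Rps27 and Rpl35, with 1.30, 3.48 and 6.09 CPM. Rps12, Rps27 and Rpl35 encode standard parts of the ribosome, so low values for them do not mean that the protein is lacking. In the annotation, 94.7%, 100% and 96.2% of the 36-base words in the last 300 bases of these 3 mRNAs also occur in other genes' transcripts. Not given in the sources used here is how multiply matching reads were counted.

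Between plate sets the total share differed by 2.06 points in heterozygotes (13.2% ± 0.134 in plate2 and 11.1% ± 0.281 in HSC libraries, SD, n = 2 each). In wild type it was 9.51% ± 1.54 in plate2 and 9.71% ± 0.731 in HSC libraries, a difference of -0.196 points that was 1.60 points without Gm models and mitochondrially encoded genes and 0.932 points without Gm-rich wells. The make-up of the ribosomal protein transcripts differed as well. In wild type 38 of 70 genes passed the test (edgeR, adjusted p under 0.05), 33 higher and 5 lower in plate2. Over all 6690 genes tested, 17.8% passed, 9.64% higher and 8.13% lower. In heterozygotes, 36 genes rose and 1 fell in plate2, 37 of 70 in all, where 22.1% of all genes passed, 11.9% higher and 10.3% lower. The median log2 fold change of the members was 0.79 in heterozygotes and 0.68 in wild type, against 0.04 and 0.08 over all genes. By subunit, 13 of 27 small subunit genes rose in each genotype, and 23 of 43 large subunit genes rose in heterozygotes and 20 in wild type. The 2 contrasts share no library, and 29 genes passed in both, 8 in heterozygotes alone and 9 in wild type alone, and 24 in neither. Without heterozygous plate2 library 1 or 2, fewer members and fewer genes of all kinds passed in heterozygotes. The members' medians were then 0.80 and 0.82. The same held in wild type without wild type HSC library 2, where the median was 0.57, against 0.26 over all genes.

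The plate sets also differ in depth. With each well thinned to 1000 transcripts, 27 of 66 members passed in heterozygotes, where 25.9% of all 965 genes tested did. In wild type 32 of 66 passed, where 31.8% of all genes did. The members' medians were 0.61 and 0.51. Cell population and library cannot be told apart here, since no library holds both sets. Median spike-in counts per well were 10.5 to 18.01 in plate2 libraries and 130 to 304 in HSC libraries.

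The stalk proteins, which recruit elongation factors to the large subunit, rose in plate2. Rplp0 had 2140 and 1919 CPM in heterozygous plate2 libraries and 373 and 492 CPM in heterozygous HSC libraries, a log2 fold change of 2.43 (SE 0.31, adjusted p = 2.42e-05). In wild type it had 1716 and 925 CPM in plate2, against 453 and 398 CPM in HSC, a log2 fold change of 1.90. Plate2 and HSC values of Rplp0 did not overlap, and no 36-base word in its last 300 bases is shared with another gene. Rplp1 rose by a log2 fold change of 1.79 in heterozygotes and 1.77 in wild type. Rplp2 had 299.8 and 185.7 CPM in heterozygous plate2 libraries, against 28.7 and 64.6 CPM in heterozygous HSC. In wild type it had 218 and 89.5 CPM in plate2 and no count in either HSC library, which makes it at least 11.5-fold higher in plate2, with the HSC group set to 3 counts in all.

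Among small subunit genes, Rps19 and Rps24 changed most in wild type. Rps19, the gene most often mutated in Diamond-Blackfan anaemia (chromosome 7, 24884371 to 24889806, plus strand, GRCm38), had 1049 and 730 CPM in wild type plate2 libraries and 151.1 and 38.8 CPM in wild type HSC. The log2 fold change was 3.50 (SE 0.41, adjusted p = 9.48e-06). In heterozygotes Rps19 had 1388 and 1201 CPM in plate2, against 307 and 378 CPM in HSC. Rps24, another gene of that anaemia, had 2129 and 2028 CPM in heterozygous plate2 libraries, against 430 and 1079 CPM in heterozygous HSC. In wild type Rps24 had 1799 and 1361 CPM in plate2, against 342 and 262 CPM in HSC. Groups did not overlap for either gene in either genotype, and the log2 fold change of Rps24 was 1.66 in heterozygotes and 2.65 in wild type. Rps18, Rps15a, Rps29 and Rps21 rose in both genotypes, with log2 fold changes from 1.36 to 1.96.

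In the list of 11 Diamond-Blackfan genes, 7 rose in heterozygous plate2 libraries and 5 in wild type plate2, with none lower. Over all genes, 11.9% rose in heterozygotes and 9.64% in wild type, but of the 70 tested members 36 and 33 rose. The median log2 fold change of the listed genes was 1.06 in heterozygotes and 0.72 in wild type, against 0.79 and 0.68 over the 70 members. Rps7, Rps10, Rps19, Rps24 and Rpl35a rose in both genotypes. Rps26 and Rpl15 rose in heterozygotes, and their values in wild type were 0.66 and 0.72. Rpl5, Rpl11 and Rpl26 did not pass in either genotype. Rpl5 and Rpl11 carry the 5S rRNA and can bind Mdm2. Rpl5 had 2379 and 2481 CPM in heterozygous plate2, 2109 and 2001 CPM in wild type plate2, 3517 and 3312 CPM in heterozygous HSC and 2679 and 1543 CPM in wild type HSC.

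Among large subunit genes, Rpl14 rose with little difference between genotypes. It had 1979 and 1995 CPM in heterozygous plate2 libraries and 434 and 338 CPM in heterozygous HSC, a log2 fold change of 2.56 (SE 0.31, adjusted p = 1.59e-05). In wild type it had 1554 and 942 CPM in plate2, against 403 and 243 CPM in HSC, a log2 fold change of 2.22. Its last 300 bases share 2.64% of 36-base words with 1 other gene. Rpl34 had 1239 and 1201 CPM in heterozygous plate2, against 311 and 413 CPM in heterozygous HSC. In wild type Rpl34 had 1066 and 716 CPM in plate2 and 130.9 and 126.2 CPM in HSC, a log2 fold change of 3.05, against 1.95 in heterozygotes. Rpl36 rose by 2.51 in heterozygotes and 2.52 in wild type on the log2 scale. Rps27a, whose product is a fusion with ubiquitin, rose by 0.77 in heterozygotes and 1.36 in wild type on the log2 scale. Its call in heterozygotes did not hold under some alternatives.

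Several members have a transcribed or retrocopied relative with its own -ps row, and the 2 rows moved differently in some pairs. Rpl23a, a protein at the exit of the peptide tunnel, rose by 3.62 in heterozygotes and 3.68 in wild type on the log2 scale, but its row held 7.15% of the transcripts of Rpl23a and Rpl23a-ps3 together. The sum of the 2 rows was 2787 and 2590 CPM in heterozygous plate2 libraries and 2633 and 2437 CPM in heterozygous HSC. In wild type the sum was 2171 and 1608 CPM in plate2, against 2579 and 3503 CPM in HSC. On the sum the log2 fold change was 0.28 (adjusted p = 0.448) in heterozygotes and -0.43 (adjusted p = 0.250) in wild type, so the call did not hold. Rpl27 had no count in the 4 HSC libraries, 128.5 and 106.1 CPM in heterozygous plate2 and 81.7 and 37.7 CPM in wild type plate2. That is at least 17.4-fold higher in heterozygotes and at least 4.42-fold higher in wild type. With Rpl27-ps3 added, Rpl27 rose by 1.95 and 1.78 on the log2 scale. Rpl9, at 20.1 and 0 CPM in wild type HSC, held 4.05% of the transcripts of its family, and the sum with Rpl9-ps1 and Rpl9-ps6 rose by 1.36 in heterozygotes and 1.94 in wild type. Rpl6l, itself annotated as a processed pseudogene on chromosome 10, rose by 1.58 and 2.18, and every 36-base word in its last 300 bases is found in other genes.

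Rps9 and Rps20, among the most abundant members, were lower in wild type plate2. In wild type 5 genes fell, among them Rps20 by 1.24, Rps15 by 1.22, Rps16 by 0.87 and Rps9 by 0.72 on the log2 scale. Rps20 had 2418 and 2190 CPM in wild type plate2 and 5076 and 7890 CPM in wild type HSC libraries. In heterozygotes it had 2988 and 3292 CPM in plate2, against 5282 and 4908 CPM in HSC, and its log2 fold change of -0.50 did not pass (adjusted p = 0.145). Groups did not overlap for Rps20 in either genotype. Without wild type HSC library 2, these 5 falls did not pass in wild type. Rpsa, the laminin receptor precursor gene of the small subunit, had 3675 and 3166 CPM in heterozygous plate2, 2948 and 2430 CPM in wild type plate2, 4098 and 3262 CPM in heterozygous HSC and 3535 and 3251 CPM in wild type HSC, and did not pass.

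**Figure D2:**
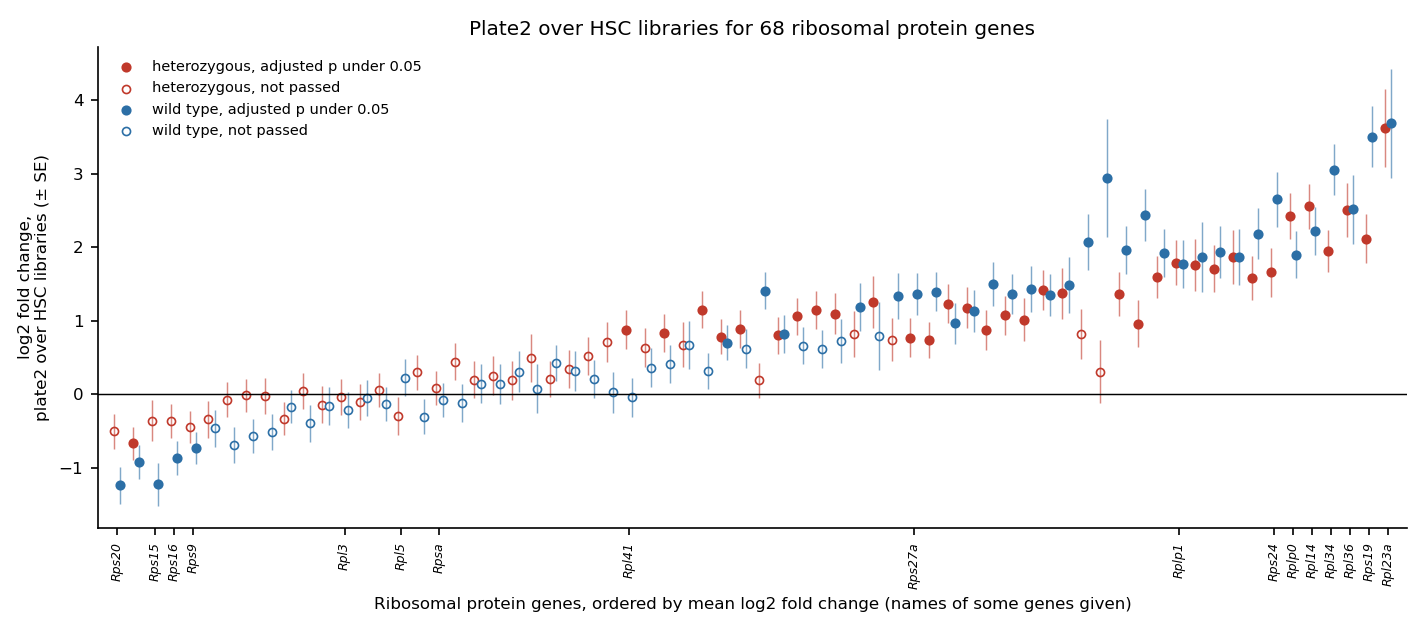
log2 fold change of plate2 over HSC libraries (y axis) with SE for 68 members, ordered by the mean over heterozygotes (red, left of each pair) and wild type (blue, right); filled points passed. Some genes are named. Rps20 lies at the low end, Rps19 and Rpl23a at the high end, and Rpl27 and Rplp2, which had HSC groups without counts, are left out.

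**Figure D3:**
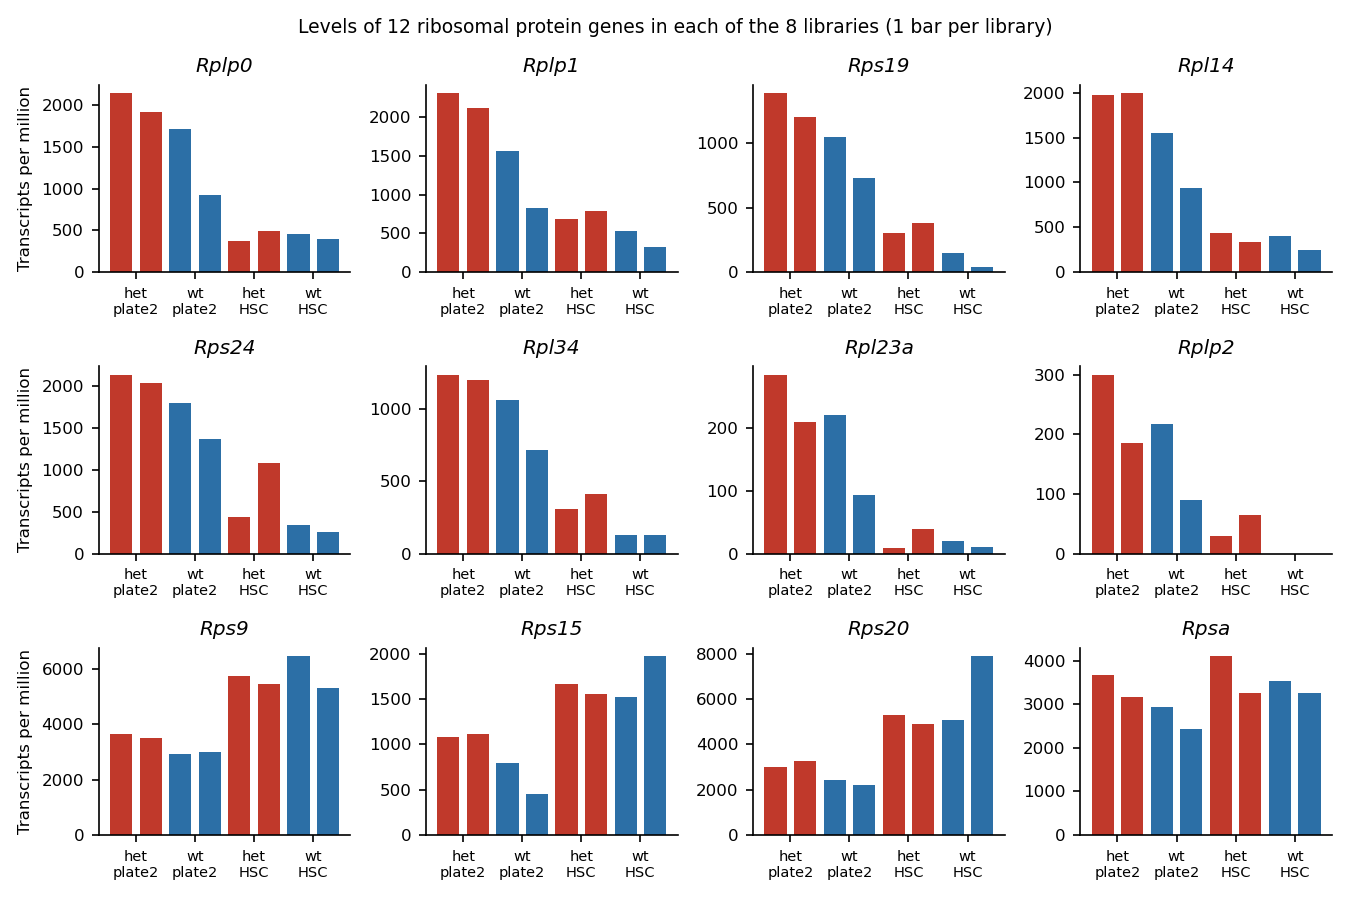
Level in CPM of 12 members in each of the 8 libraries (1 bar per library, heterozygous in red, wild type in blue, y axes from 0). The first 8 genes are higher in all plate2 libraries than in the HSC libraries of the same genotype, Rps9, Rps15 and Rps20 are lower, and Rpsa overlaps in heterozygotes.

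Ribosomal protein transcripts were also spread more evenly over genes in plate2. The 10 most abundant members held 25.6% and 25.9% of member transcripts in heterozygous plate2 libraries, 26.5% and 30.7% in wild type plate2, 39.1% and 36.02% in heterozygous HSC and 41.3% and 48.7% in wild type HSC. Over the 74 genes, the profiles of 2 libraries had a Spearman's rho of 0.906 to 0.985 within a plate set (12 pairs) and 0.743 to 0.873 between sets (16 pairs), given as a description across genes.

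The profile went with the plate set also inside clusters that hold wells of both. The 28 genes that rose in both genotypes and the 5 that were lower in both and passed in at least 1 were picked from these same libraries, so their sums are descriptions. In erythroid progenitor-like cluster 5, the 28 genes held 35.9% of member transcripts in 32 plate2 wells, against 17.2% in 8 HSC wells, and the 5 genes held 9.53%, against 18.96%. In cluster 4 the 28 genes held 34.1% in 58 plate2 wells, against 22.3% in 5 HSC wells. Within plate2, clusters 4, 5, 8 and 9 lay between 34.1% and 35.9%, and the Gm-led cluster 7 was at 31.8% (27 wells). The shallow cluster 6 was at 25.9% (23 wells, with 14.6% for the 5 genes). Most of these 23 wells used barcode numbers outside their library's own 96, and whether they hold its cells was not tested. Within HSC libraries clusters 0, 1 and 2 lay between 17.2% and 18.7%. Rps24 alone made 1.46% of member transcripts in plate2 wells of cluster 5, against 0.295% in its HSC wells. Over wells with at least 100 member transcripts, the median share of the 28 genes was 36.3% and 34.7% in heterozygous plate2 libraries, 34.7% and 32.2% in wild type plate2, 18.1% and 21.2% in heterozygous HSC and 15.4% and 11.6% in wild type HSC.

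**Figure D4:**
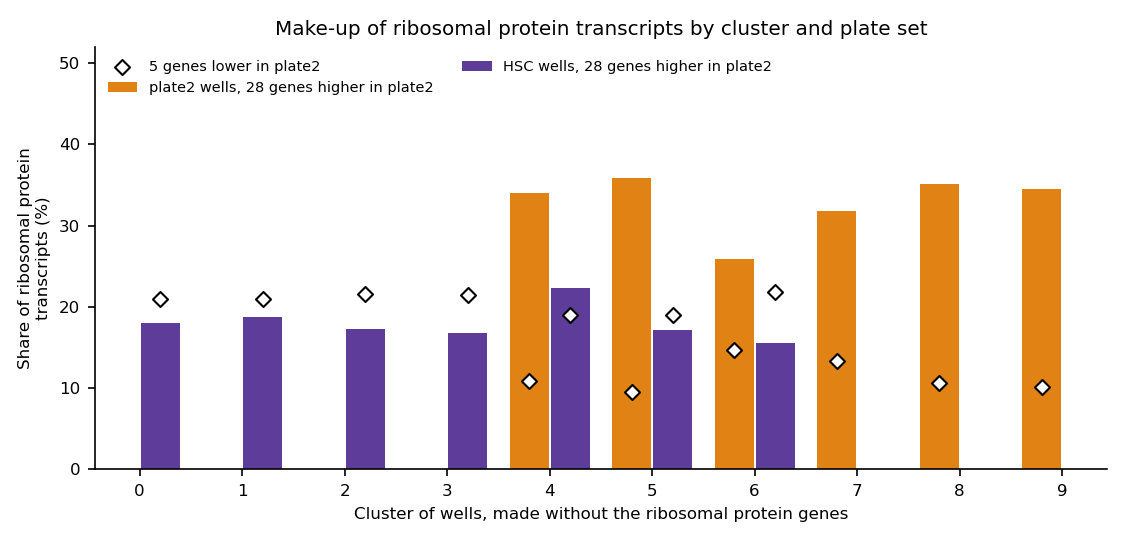
Percent of ribosomal protein transcripts (y axis) held by 28 genes higher in plate2 (bars) and 5 genes lower in plate2 (diamonds), by cluster, with plate2 wells left of HSC wells; bars with under 500 member transcripts are left out. Where a cluster holds wells of both sets, the bar of its plate2 wells is the taller.

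Annotated transcript properties were set beside these changes. Over 70 members, Spearman's rho with the log2 fold change, plate2 over HSC, was -0.24 in heterozygotes and -0.21 in wild type for mRNA length, 0.06 and -0.09 for GC content of the last 300 bases, and 0.09 and 0.20 for the percentage of shared 36-base words. These are descriptions across genes, which share libraries. The 28 genes that rose in both genotypes had a median of 59.6% shared 36-base words, and 17 of the 28 had at least 50% shared, against 23.02% in the 5 that were lower and 36.6% in 37 other members. Their median 3′ UTR was 71 bases, against 519 bases in the 5 and 94 bases over all 74 members. A pyrimidine run at the start was in 14 of the 19 risen genes with a RefSeq promoter, and in 15 of 31 other members. Rps9, a gene that fell, holds such a run, and the windows of Rps15 and Rps16 shown above hold none. Rpl19 and Rpl28, in neither the 28 nor the 5 genes, hold runs of 9 and 10 bases.

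Other genes of translation were compared as lists. Of 17 tested genes from a list of other TOP mRNAs, 6 rose and none fell in heterozygous plate2 libraries, and 5 rose and 1 fell in wild type plate2, with median log2 fold changes of 0.40 and 0.47. Eef1a1, which brings aminoacyl-tRNA to the ribosome, rose by 1.17 in heterozygotes and 2.73 in wild type on the log2 scale, Npm1 by 1.02 and 1.11, and the translocation factor Eef2 fell by 1.34 in wild type. Of 21 ribosome biogenesis genes, 9 rose in heterozygotes, among them Fbl, Ncl and Nop56, and in wild type 1 rose and 1 fell, Gar1 and the RNA polymerase I factor Rrn3. Of 68 mitochondrial ribosomal protein genes, 14 rose in heterozygotes, and 5 rose and 3 fell in wild type. Over all genes, 11.9% rose and 10.3% fell in heterozygous plate2 libraries, and 9.64% rose and 8.13% fell in wild type plate2. In wild type the biogenesis and mitochondrial ribosomal protein lists did not exceed those shares. The median of the mitochondrial list is given next. The mitochondrial ribosomal protein genes had a median of 0.71 in heterozygotes, near that of the cytosolic members, and 0.17 in wild type.

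No ribosomal protein gene passed the test between genotypes. In plate2, 0 of 70 passed, where 0.553% of all genes did, and 10 had an unadjusted p under 0.05, as did 5.05% of all genes. DESeq2 and limma-voom also called 0 members in plate2, where they called 0.374% and 0.792% of all genes. In HSC libraries 0 of 70 passed, where 0.0149% of all genes did, and 22 had an unadjusted p under 0.05, as did 10.8% of all genes. DESeq2 called 6 members in HSC, and 0.284% of all genes, and limma-voom called 2, and 0.0448% of all genes. Some members also passed without wild type HSC library 1, which had the high haemoglobin level, or without heterozygous HSC library 1. A group was then left with 1 library. The members' median log2 fold changes were 0.59 and 0.35, against 0.26 and 0.0019 over all genes. Over both sets 0 of 70 passed, where 0.135% of all genes did, and 27 had an unadjusted p under 0.05, as did 5.96% of all genes. DESeq2 and limma-voom called 0 members over both sets, where they called 0.135% and 0.448% of all genes.

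The values nevertheless leaned to one side. In plate2 the log2 fold change, heterozygous over wild type, was above 0 for 69 of 70 members with a median of 0.38, against -0.0046 over all genes. In HSC libraries it was above 0 for 50 of 70 with a median of 0.31, against 0.03, and over both sets for 64 of 70 with a median of 0.36, against -0.01. In CPM, both heterozygous libraries lay above both wild type libraries for 67 of 70 members in plate2, where 30.6% of all genes did so, and for 35 of 70 in HSC, where 23.1% of all genes did. Rpl9 in plate2, and Rpl4 and Rps14 in HSC, lay below. Without wild type plate2 library 2 the plate2 median was 0.20, and without wild type plate2 library 1 it was 0.58. The HSC median was 0.59 without wild type HSC library 1, against 0.26 over all genes, and 0.18 without wild type HSC library 2, against 0.19 over all genes, so that the members then did not stand above the rest. The members share these 4 libraries, so their number adds no replicates.

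By subunit, all 27 small subunit genes and 42 of 43 large subunit genes had plate2 values above 0, with medians of 0.39 and 0.35. Rplp1 had the largest plate2 value among the members named by smallest p, with 2306 and 2115 CPM in heterozygous plate2 libraries and 1565 and 829 CPM in wild type plate2, a log2 fold change of 0.74 (SE 0.29, adjusted p = 0.807). Rps15 had 0.67, Rpl41, the smallest ribosomal protein, 0.66, Rpl15 0.62 and Rpl32 0.60, none of which passed. The spread of plate2 values was narrow, with 25% of members under 0.26 and 25% above 0.50. Rpl9 was the 1 member below 0, at -0.29, and with its -ps rows added the value was 0.27.

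In HSC libraries the members spread more widely. Rps6, the target of S6 kinase in the small subunit, had 2686 and 3003 CPM in heterozygous HSC libraries and 1239 and 893 CPM in wild type HSC. Its log2 fold change was 1.35 (SE 0.25, adjusted p = 0.0646), which did not pass, and it was called by DESeq2 and by limma-voom. Its groups do not overlap, and 84.2% of the 36-base words in its last 300 bases are shared with other genes. Rpl17 had 1421 and 1785 CPM in heterozygous HSC, against 715 and 223 CPM in wild type HSC, a log2 fold change of 1.72 (adjusted p = 0.103). Rps19 had a log2 fold change of 1.79, Rpl39 of 1.60 and Rpl34 of 1.42, with adjusted p from 0.138 to 0.178. On the other side, Rpl4 had 4446 and 3406 CPM in heterozygous HSC, against 4986 and 5338 CPM in wild type HSC, a log2 fold change of -0.47 (adjusted p = 0.474). Rps20 at -0.43, Rpl19 at -0.39, Rps14 at -0.36 and Rpl10a at -0.29 did not pass either.

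Over both sets, the members of smallest p were Rpl17 at 0.92, Rpl39 at 0.89, Rps18 at 0.78, Rplp1 at 0.74 and Rps6 at 0.72 on the log2 scale, with adjusted p from 0.412 to 0.479. The lowest were Rpl4 at -0.19, Rpl19 at -0.08, Rps20 at -0.06, Rpl10a at -0.04 and Rps9 at -0.01, and apart from Rpl4 these changed sign under some alternatives. All 11 Diamond-Blackfan genes had values above 0 in plate2 and over both sets, and 9 of 11 in HSC, with medians of 0.39, 0.45 and 0.52. In plate2, 17 of 17 other TOP genes and 59 of 68 mitochondrial ribosomal protein genes also had values above 0, with medians of 0.19 and 0.34. In HSC these lists gave 14 of 17 and 32 of 68, with medians of 0.08 and -0.06. None of these genes passed.

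The difference between the genotype effects, plate2 minus HSC, passed for 0 of 70 members and for 0.0% of all genes, with 11 members at an unadjusted p under 0.05, as were 9.07% of all genes. DESeq2 and limma-voom called 0 members for this difference, where they called 0.0% and 0.0149% of all genes. The median was 0.05, against -0.07 over all genes, and 40 of 70 values were above 0. Rps6 had a difference of -1.22 (adjusted p = 0.306), Rpl17 of -1.47 and Rps19 of -1.39, while Rpl41 had 0.92, Rps15 0.87, Rps20 0.73 and Rpl19 0.62. The genotype effect is thus not shown to differ between plate sets for any member.

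**Figure D5:**
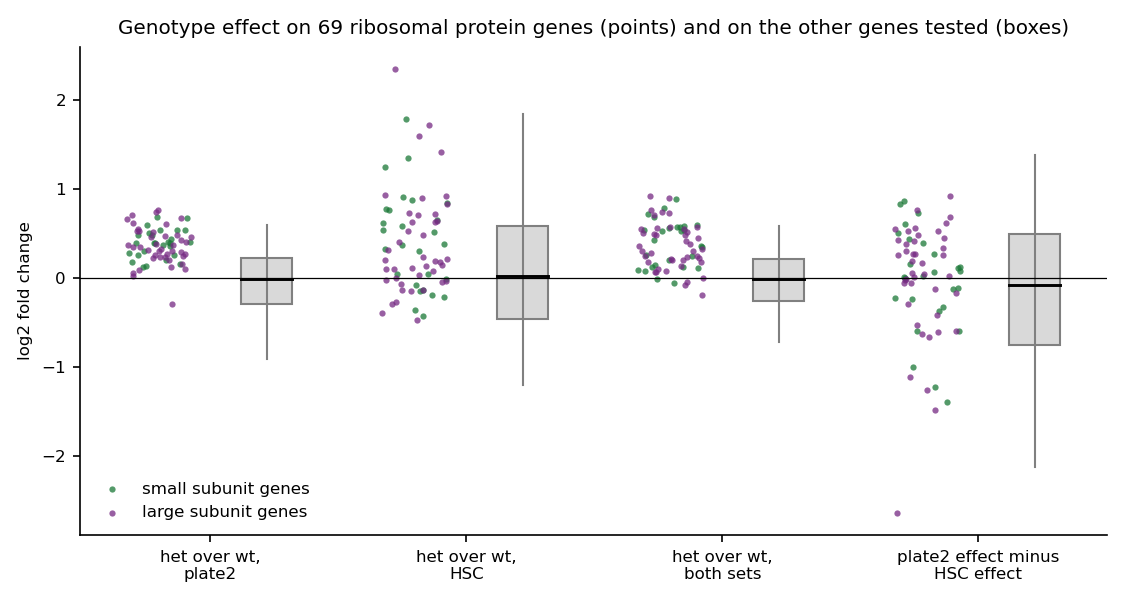
log2 fold change, heterozygous over wild type (y axis), of 69 members (points, small subunit green, large subunit purple) in plate2, in HSC and over both sets, and the plate2 effect minus the HSC effect. Boxes give the quartiles and lines the 5th to 95th percentile of the other genes tested; in plate2 the points lie above 0 except for Rpl9, and in HSC they spread to both sides.

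Less abundant or variant members completed the family. Rps27l, a paralogue of Rps27 known as a p53 target, had 244 and 277 CPM in heterozygous plate2 libraries, 194.7 and 134.2 CPM in wild type plate2, 81.9 and 94.5 CPM in heterozygous HSC and 20.1 and 87.3 CPM in wild type HSC, and rose in plate2 in both genotypes by 1.76 and 1.87 on the log2 scale. Rps27 itself was near 0 in every library, with at most 7.37 CPM. Rpl10, which joins the large subunit late, had 191.9 and 137.1 CPM in heterozygous plate2 libraries, 100.8 and 84.8 CPM in wild type plate2, 77.8 and 79.6 CPM in heterozygous HSC and 90.7 and 38.8 CPM in wild type HSC. Its row held 14.02% of the transcripts of Rpl10 and Rpl10-ps3 together, and all 36-base words of its last 300 bases are shared. Rpl10l gave 1 transcript in all, in heterozygous plate2 library 2. Rpl3, the large subunit protein next to the catalytic centre, had 1981 and 1975 CPM in heterozygous plate2, 1748 and 1479 CPM in wild type plate2, 2657 and 1999 CPM in heterozygous HSC and 2145 and 2339 CPM in wild type HSC, and did not pass in any comparison. Rpl41 had 2549 and 2519 CPM in heterozygous plate2, 1631 and 1286 CPM in wild type plate2, 1797 and 1353 CPM in heterozygous HSC and 1420 and 2164 CPM in wild type HSC, and rose in heterozygous plate2 by 0.88 on the log2 scale.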

How the data were processed

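The authors deposited expected counts per gene and barcode, not scaled for depth; tested on the files, every value is the estimate of molecules that corrects a whole number of identifiers for collisions among 4096 possible ones. Per the submitters' processing notes, BWA 0.6.2-r126 and mm10 were used. Not given in the sources used here are the annotation, read filters and counting tool. The 70 spike-in rows stayed out of totals and tests, and no row named no gene.

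Barcodes with at least 1000 transcripts were kept, summed per library, rounded and tested with edgeR 4.0.16 (TMM, filterByExpr, quasi-likelihood test, two-sided) over 6690 genes, with Benjamini-Hochberg adjusted p under 0.05. A one-way layout of 4 groups served all contrasts, with plate set as a term for both sets together. Adjusted p values are edgeR's unless DESeq2 1.42.0 or limma-voom (limma 3.58.1) is named. CPM carry no TMM factors. A floor of 3 counts per group covers counting error only. Wells were clustered with scanpy 1.11.5 (2000 variable genes, 15 components, Leiden resolution 1) after the members and -ps rows were removed. No doublet caller was run, since wells hold sorted cells. A cluster was named from at least 3 markers among its 50 leading genes that at least 50% of its wells showed. Transcript features came from GENCODE vM21 and promoters from RefSeq, both of GRCm38, which is mm10.

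The members and lists were chosen with earlier results of these data known. Genes named per comparison were up to 10 per side of largest change among those that passed, or 5 of smallest p where fewer than 5 passed, plus stalk proteins, Rpsa, paralogues, the 5S particle, Rpl41, the Diamond-Blackfan list and the 5 highest and 5 lowest genes. Some of these genes are not reported here. Alternatives are given in the closing section.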

Additional observations from a re-analysis of the deposited data

Results flagged for a closer look

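For 3 members, both heterozygous libraries lay on one side of both wild type libraries in plate2 and on the other side in HSC, in CPM. Rpl4 and Rps14 were higher in heterozygous plate2 and lower in heterozygous HSC, and Rpl9 was lower in heterozygous plate2 and higher in heterozygous HSC. The difference between the genotype effects, plate2 minus HSC, was 0.56 (SE 0.32, adjusted p = 0.618) for Rpl4, 0.83 (SE 0.35, adjusted p = 0.507) for Rps14 and -2.63 (SE 0.97, adjusted p = 0.448) for Rpl9 on the log2 scale, so edgeR's test of the difference passed for none of them. Rpl9 had 57.1 and 60.4 CPM in heterozygous plate2 and 61.3 and 70.6 CPM in wild type plate2, against 40.9 and 69.6 CPM in heterozygous HSC and 20.1 and 0 CPM in wild type HSC.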

How the results depend on the processing

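The heterozygous minus wild type difference in ribosomal share kept its direction under every alternative run for it. Single members lost their call between plate sets under some alternatives. The count of members called between plate sets stayed within 1.5 times under every alternative that kept all libraries. Leaving out 1 library gave 21 to 41 in heterozygotes (21 without either heterozygous plate2 library) and 25 to 38 in wild type (25 without wild type HSC library 2). A group left with 1 library is assumed to vary like the others. For the genotype in HSC, where 0 members passed, 1 passed with library size alone, 6 with DESeq2, 2 with limma-voom, 6 with no low-count filter, 3 with at least 2000 transcripts, 2 with all barcodes and 3 with thinned wells, and leaving out 1 library gave 0 to 5 (4 without heterozygous HSC library 1, 5 without wild type HSC library 1). With no low-count filter 4 members passed over both sets and 1 for the difference of the genotype effects, where 64 and 21 of 19756 genes did. With 1 library left out, the members' median of that difference lay between -0.15 and 0.27. The cause was not tested. In plate2 the genotype count was 0 under every alternative run.

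The plate2 minus HSC share in wild type, -0.196 points, changed sign to 0.146 with at least 2000 transcripts, 0.0838 with all barcodes, 1.60 without Gm models and mitochondrial genes, 0.157 as the median of wells, 0.0470 with -ps rows and 0.932 without Gm-rich wells, and lay between -1.28 and 0.890 with 1 library left out. In heterozygotes, 2.06 points became 3.33 without Gm models and mitochondrial genes, 2.64 with -ps rows and 2.41 without Gm-rich wells. Leaving out Gm-rich wells, and adding -ps rows to the parent gene in the tests below, were chosen after seeing the data.

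With library size alone the median over all genes shifted to -0.16 in both plate set contrasts and to 0.12 and 0.13 for the genotype in HSC and plate2, where the members' medians were 0.59 (heterozygotes), 0.44 (wild type), 0.40 and 0.51.

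Over both sets, small genotype changes below 0 became positive on the log2 scale. Rpl10a had 0.072 with library size alone, 0.018 with no filter, 0.037 with at least 2000 transcripts and 0.0022 with all barcodes (1 library left out, -0.105 to 0.135). Rpl19 had 0.032 with library size alone and 0.019 with at least 2000 transcripts (-0.136 to 0.0979). Rps20 had 0.056 with library size alone, 0.00034 with no filter and 0.079 with at least 2000 transcripts (-0.145 to 0.208). Rps9 had 0.103 with library size alone, 0.0086 with limma-voom, 0.050 with no filter, 0.11 with at least 2000 transcripts, 0.0072 with own barcodes, 0.013 without neutrophil-marked wells and 0.0084 without Gm models and mitochondrial genes (-0.0279 to 0.118). Rps20 in HSC lay between -0.638 and 0.0244 with 1 library left out. With -ps rows added to the parent gene, Rpl9 had 0.27 for the genotype in plate2 and Rpl23a -0.43 for plate2 over HSC in wild type.

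With the replicate number as a block, 0 members passed in HSC and 0 over both sets. Deviations of same-numbered HSC libraries had r = -0.095 across genes, which cannot show whether the numbers pair them. Same-numbered HSC libraries had the same own 96 barcode numbers. No erythroid minus stem-like share was given, since no cluster earned a stem-like name. Plate2 labels share no such number. Depth is lowest in HSC libraries, where members near 0 have only a bound.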
